A study of Homo sapiens with 4 samples.

Results

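The genes of integrin receptors and of the focal adhesion plaque were followed in MDA-MB-231 cells after MGH-CP1 treatment. MDA-MB-231 is a human breast cancer line of mesenchymal type, and MGH-CP1 is a small molecule that binds the lipid pocket of TEAD transcription factors and blocks their autopalmitoylation. All 4 libraries came from this line, grown in DMEM with serum and kept for 24 h with vehicle (DMSO, 2 libraries) or with MGH-CP1 (2 libraries). The sample labels give the dose as 10 µM, whereas the methods write it in mM. Nothing states whether the replicates were separate cultures, so the p-values measure the spread between these libraries, which may be technical. The members are 45 genes, chosen by symbol, of 48162 in the deposited table: 13 integrin alpha subunits, 8 integrin beta subunits, 21 plaque proteins and the 3 migration genes PHLDB2, PARD3 and MACF1. ITGB3 and LIMS1 have further rows under the same symbol, listed at or close to 0 FPKM, and the row with the higher level was used.

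An integrin is a pair of an alpha and a beta subunit that spans the plasma membrane and binds matrix proteins such as collagen, laminin and fibronectin. Talins and kindlins bind the tail of the beta subunit inside the cell and switch the receptor to its active form, and vinculin, filamins, zyxin and the ILK complex tie it to actin. Focal adhesion kinase, SRC, p130Cas and paxillin pass the signal on, and YAP and TAZ respond to the tension that such adhesions bear.

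After MGH-CP1 the RNA of several integrin subunits was higher and that of the 4 integrin activators among the members was lower. Only RNA was measured in these libraries. Of the 13 integrin subunits expressed well enough to be tested, 8 were higher and 0 lower, beside 27.1% and 23.8% of all genes tested. The 13 include ITGA10 and ITGB3, which passed the filter only through their MGH-CP1 libraries, and ITGA10 is among the 8. ITGB4, ITGA1, ITGA5 and ITGA2 rose by more than 0.5 on the log2 scale, as did ITGA10, which was under the filter in the vehicle control libraries. Both talins and the kindlins FERMT1 and FERMT2 were lower, with log2 fold changes of -0.40 to -0.24. FERMT3, a kindlin gene outside the members, was too low to be tested. With 1 library left out, the talins TLN1 and TLN2 ran from -0.31 to -0.17 and from -0.44 to -0.37. The kindlins FERMT1 and FERMT2 then ran from -0.44 to -0.19 and from -0.33 to -0.21. The calls of TLN1, FERMT1 and FERMT2 did not hold in each of these fits, as described below. Zyxin, filamin A, filamin C, alpha-parvin and each of the 3 migration genes were lower as well. Of the kinases and adaptors of the plaque, PTK2B, BCAR1 and PXN were called higher and none lower. The main beta subunit, ITGB1, did not pass the test. In limma voom on recovered fragments 11 integrin subunits were higher and 1, ITGB1, was lower, beside 3480 and 3113 of all 12080 genes. ITGA10 and ITGB3 are among the 11.

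TEAD proteins bind the core motif GGAATG, read as CATTCC on the other strand, so the sequence before the start of the members was searched for it on both strands. RefSeq promoters (build GRCh38.p14) were matched by symbol for 33 of the 45 members, and the 250 bases before each start were read. The motif stood in a window of 9 of these 33 genes (27.3%) and of 14.3% of all 27305 genes in the table. Counted by window, it was in 16.9% of the 59 windows of members and in 11.9% of all 35116, since genes have unequal numbers of starts. Of the genes with the motif, ITGA10, ITGA5, TES and PXN were higher after MGH-CP1, FLNC and MACF1 were lower, ITGB1 and VCL did not pass the test, and TNS1 was too low to be tested. A match is only a string of letters and not a binding site. The windows of 2 genes that rose and 2 that fell are shown because they carry the same core while their RNA moved in opposite directions. Each runs 5′ to 3′ on the strand of its gene with the motif in capitals: ITGA10 from chr1:145910051-145910300 (minus strand), ITGA5 from chr12:54419267-54419516 (minus strand), FLNC from chr7:128830156-128830405 (plus strand) and 1 of the 3 windows of MACF1 from chr1:39204445-39204694 (plus strand).
ITGA10: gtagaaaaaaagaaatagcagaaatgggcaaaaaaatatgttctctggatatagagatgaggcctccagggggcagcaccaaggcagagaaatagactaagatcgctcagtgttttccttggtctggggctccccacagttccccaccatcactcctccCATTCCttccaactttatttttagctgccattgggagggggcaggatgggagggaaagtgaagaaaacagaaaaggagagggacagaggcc
ITGA5: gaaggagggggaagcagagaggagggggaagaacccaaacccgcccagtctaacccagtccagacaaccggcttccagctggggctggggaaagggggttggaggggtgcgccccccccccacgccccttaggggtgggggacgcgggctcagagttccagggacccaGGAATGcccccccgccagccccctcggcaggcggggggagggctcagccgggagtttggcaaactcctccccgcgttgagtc
FLNC: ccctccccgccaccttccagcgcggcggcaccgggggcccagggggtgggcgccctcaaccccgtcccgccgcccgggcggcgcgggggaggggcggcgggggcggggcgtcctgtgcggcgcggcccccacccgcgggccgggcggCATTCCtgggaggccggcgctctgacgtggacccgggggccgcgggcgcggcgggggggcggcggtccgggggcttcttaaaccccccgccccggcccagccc
MACF1: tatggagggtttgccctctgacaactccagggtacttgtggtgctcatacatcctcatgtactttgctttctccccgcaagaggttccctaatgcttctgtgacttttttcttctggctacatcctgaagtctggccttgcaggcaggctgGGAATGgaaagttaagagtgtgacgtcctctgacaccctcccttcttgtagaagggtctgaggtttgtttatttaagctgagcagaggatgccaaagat
The first base of the motif stood 91 bases before the start in ITGA10, 82 in ITGA5, 103 in FLNC and 99 in MACF1.

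Levels are FPKM, fragments on a gene scaled by its length and by the library total, so they can be compared between genes as well as between libraries. The libraries held 25455533 and 25508824 fragments with vehicle and 17997221 and 17577930 with MGH-CP1. This difference in depth goes with the treatment, and its part in the results was not tested. Genes with a mean of at least 1 FPKM over the 4 libraries, 12080 in all, were compared with limma on log2(FPKM + 1), and a gene is called where its adjusted p is under 0.05 (Benjamini-Hochberg over all 12080, two-sided). Log2 fold changes, given with their standard error (SE), are on this scale, which understates the change of low genes. Since FPKM is relative to the library total and the samples are bulk RNA, fewer cells of a type and less RNA per cell cannot be told apart. The line had its known features, with VIM at 259.0 to 281.0 FPKM and CD44 at 198.5 to 220.9. Of its other markers, EGFR went from 49.7 and 48.5 FPKM to 34.9 and 36.1 (log2 fold change -0.46, limma adjusted p = 2.19e-04), and CAV1, described with the wider plaque, was also lower. ESR1 and PGR had at most 4 fragments in a library and CDH1 at most 0.638 FPKM. ERBB2 (24.7 to 28.4 FPKM), EPCAM (12.4 to 16.4) and KRT8 (291.2 to 340.9), placed in the marker list as low in this line, were not low. The blood cell markers PTPRC, CD3E, CD68 and HBB and the endothelial marker CDH5 had at most 3 fragments in a library. The TEAD–YAP targets CYR61, CTGF and ANKRD1 fell, with log2 fold changes of -0.75, -0.66 and -0.66.

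Of the 45 members, 34 passed the filter. Of these 34, 12 were called higher (35.3%) and 11 lower (32.4%), beside 27.1% and 23.8% of all genes tested (50.8% in either direction). ITGA10 and ITGB3 passed only through their MGH-CP1 libraries, and without them 11 of 32 members were higher and 11 lower. In 32 of the 34 both MGH-CP1 libraries lay on one side of both vehicle control libraries, as in 77.2% of all genes tested, with ITGAV and TNS3 as the exceptions. The members tested had 75 to 104584 fragments per library. Most changes were small, and 6 members, ITGA10 among them, changed by at least 0.5 on this log2 scale, all of them upward. With a pseudocount of 0.1 and in limma voom TLN2 also passed 0.5 downward (-0.54 and -0.56) and ITGB3 upward (0.51 and 0.56). Long genes tended to be lower after MGH-CP1. Over all genes tested with a length of 8000 to 20000 bases the median log2 fold change was -0.11, and over those of 2000 bases or less it was 0.11. The 7 genes of 20000 bases or more did not follow this in their median (0.03), though 42.9% were called lower and 14.3% higher. For the long members the value with this length trend removed, a setting chosen after the data were seen, is given beside the result. A single gene in 2 libraries against 2 cannot go below p = 0.333 in an exact permutation test, so the calls depend on the variance estimate that limma pools over genes. Without that sharing 0 members passed an adjusted p of 0.05 in the linear model. In that fit 9 members were higher and 7 lower at an unadjusted p under 0.05, beside 2584 and 2363 of all 12080 genes.

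**Figure D1:**
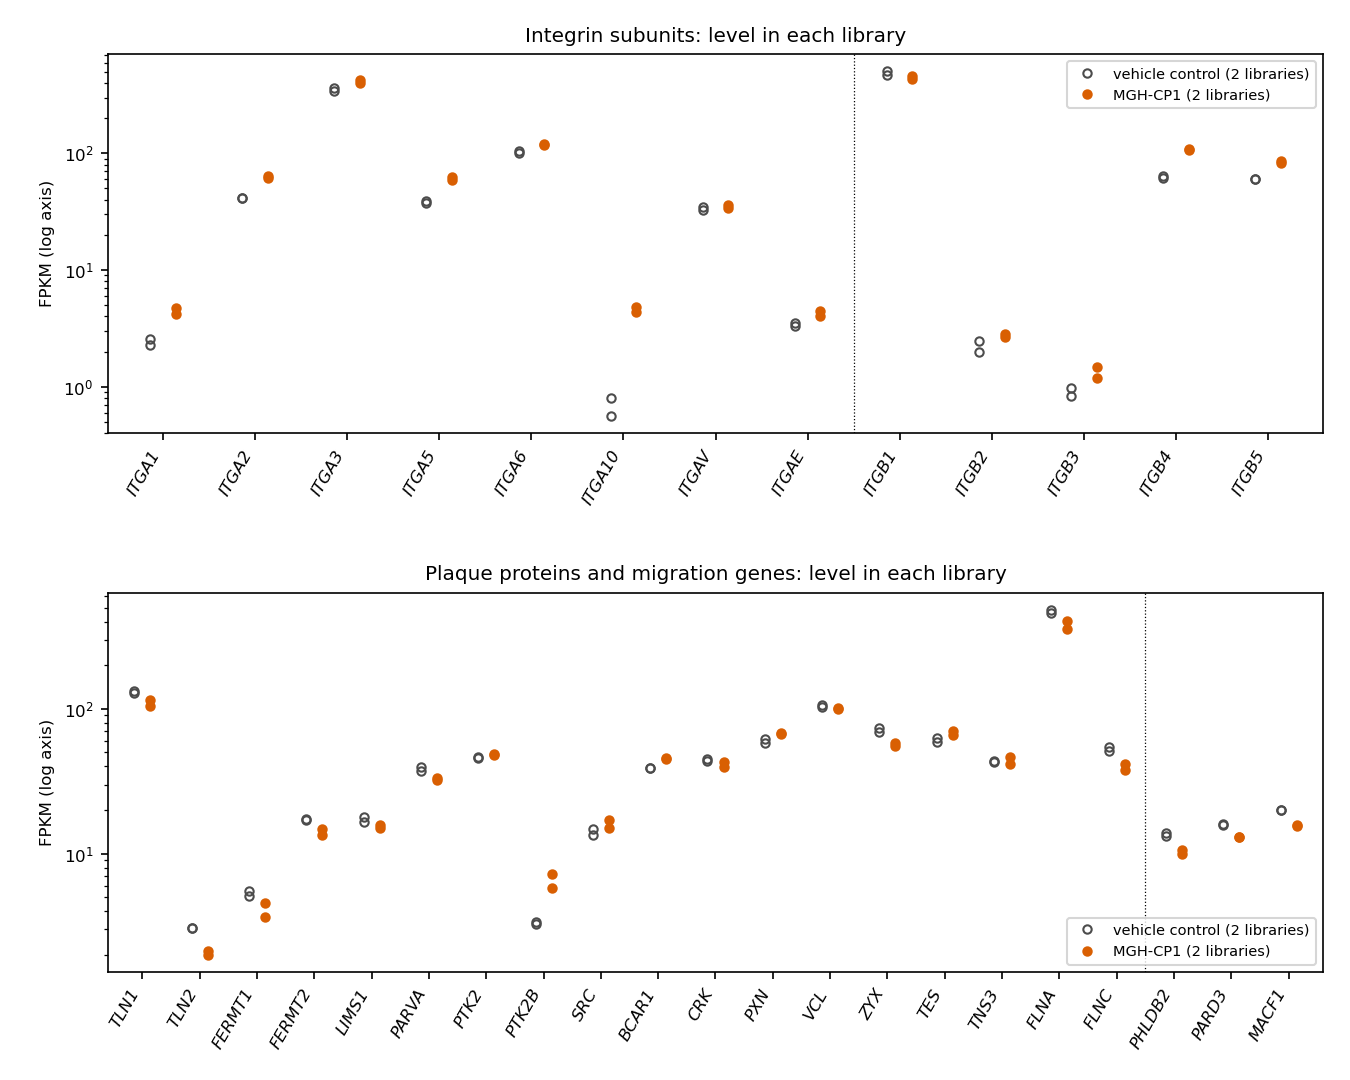
FPKM (log axis) of the 34 members tested in each of the 4 libraries, with vehicle control as open circles and MGH-CP1 as filled circles; dotted lines part alpha from beta subunits and plaque proteins from migration genes. ITGB1, FLNA and ITGA3 are the highest members, and the MGH-CP1 circles lie apart from the vehicle control circles in 32 of the 34.

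Among the alpha subunits, which together with the beta chain set the ligand, 6 of the 8 tested were higher and 0 lower, beside 27.1% and 23.8% of all genes. None of the 8 could be called lower, since all their log2 fold changes were above 0. Limma voom on recovered fragments called 7 higher and 0 lower, beside 3480 and 3113 of all 12080 genes. The median log2 fold change was 0.42 (SD 0.02 when each treated library is set against each control, 4 pairs that share libraries), where the median of all genes tested was 0.01. Without ITGA10, which passed the filter only through its MGH-CP1 libraries, 5 of 7 were higher and 0 lower, and the median was 0.25. All 8 values were above 0, from 0.06 for ITGAV to 1.74 for ITGA10.

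ITGA10 (ENSG00000143127, hg19 chr1:145524891-145543868), a collagen receptor subunit best known from cartilage, changed most of all members. Its FPKM was 0.559 and 0.796 with vehicle and 4.84 and 4.33 after MGH-CP1. Both treated libraries stood far above both controls, with 75 to 459 fragments behind the values. The mean rose from 0.678 ± 0.168 to 4.58 ± 0.361 FPKM (SD, n = 2 each), a ratio of 6.77, and the log2 fold change was 1.74 (SE 0.12). Its vehicle control mean was under 1 FPKM, so it entered the test only through its MGH-CP1 libraries and had to differ; its call (limma adjusted p = 3.31e-05) is therefore no independent support.

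The other collagen receptor subunits with measurable RNA rose with it. ITGA2 (hg19 chr5:52285156-52390609), the alpha chain of the main epithelial collagen receptor, had 41.7 and 41.1 FPKM with vehicle and 64.1 and 61.9 with MGH-CP1. Its log2 fold change was 0.59 (SE 0.05, limma adjusted p = 6.42e-05). ITGA1 (hg19 chr5:52083730-52252327), its neighbour on the chromosome with a preference for basement membrane collagen, had 2.55 and 2.29 FPKM with vehicle and 4.76 and 4.21 after treatment. The log2 fold change of ITGA1 was 0.68 (SE 0.10, limma adjusted p = 8.48e-04), and 0.75 with the length trend removed. PELO lies within ITGA1 on the same strand with 1017 to 1394 fragments, against 469 to 689 on ITGA1. The fourth of these subunits, ITGA11, had at most 4 fragments in a library. Summed over ITGA1, ITGA2, ITGA10 and ITGA11, the collagen receptor alpha chains came to 44.5 ± 0.477 FPKM with vehicle and 72.1 ± 2.29 FPKM with MGH-CP1 (SD, n = 2 each), a ratio of 1.62 (two-sided exact permutation p = 0.333, the lowest this design allows). This grouping by ligand was made after the values were seen.

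The fibronectin receptor subunit ITGA5 (hg19 chr12:54789045-54813244) had 37.4 and 38.9 FPKM with vehicle and 62.7 and 59.0 after MGH-CP1. The treated libraries did not overlap the controls, and the log2 fold change was 0.66 (SE 0.05, limma adjusted p = 6.30e-05). ITGAV (hg19 chr2:187454792-187545628), which pairs with several beta chains to bind vitronectin, had 34.4 and 32.8 FPKM with vehicle and 35.8 and 34.1 with MGH-CP1. Here the groups overlapped, and the log2 fold change of 0.06 had a 95% interval from -0.07 to 0.18 (adjusted p = 0.419 from limma). A rise of the size seen for ITGA5 lies outside that interval.

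The laminin receptor subunits were the most abundant alpha chains and rose less. ITGA3 (hg19 chr17:48133332-48167845) had 343.4 and 363.5 FPKM with vehicle and 402.8 and 421.9 with MGH-CP1, a log2 fold change of 0.22 (SE 0.05, limma adjusted p = 0.00792). Its call was lost with quantile normalization (log2 fold change 0.08, adjusted p = 0.169) and without MGH-CP1 replicate 2 (0.19, adjusted p = 0.0677). ITGA6, which pairs with ITGB1 or ITGB4, had 103.8 and 99.95 FPKM with vehicle and 117.5 and 119.2 with MGH-CP1, a log2 fold change of 0.21 (SE 0.05, limma adjusted p = 0.00579). ITGAE, which joins ITGB7 in lymphocytes to bind E-cadherin, changed by 0.25 with an adjusted p of 0.0504 from limma. GSG2, a kinase gene on the opposite strand within ITGAE, held 227 to 794 fragments against 280 to 345 on ITGAE, and the use of strand in counting is not stated. ITGA4, ITGA7, ITGA8, ITGA9 and ITGA11 were too low to be tested, with at most 16 fragments in a library.

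The beta subunits split. ITGB4 and ITGB5 were called higher and ITGB1, ITGB2 and ITGB3 were not called, so that 2 of 5 rose beside 27.1% of all genes, and 0 of 5 were lower beside 23.8%. At an unadjusted p under 0.05 the count lower was also 0, beside 3254 of all 12080 genes. Limma voom called 4 higher, ITGB3 among them, and ITGB1 lower, beside 3480 and 3113 of all genes. The median log2 fold change of the beta subunits was 0.29 (SD 0.11 across the same 4 pairs). That median is the value of ITGB3, which passed the filter only through its MGH-CP1 libraries.

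ITGB4 (ENSG00000132470, hg19 chr17:73717408-73753899), the long-tailed beta chain that joins ITGA6 in hemidesmosomes and links laminin to keratin, rose most clearly. It had 61.5 and 64.0 FPKM with vehicle and 108.7 and 106.8 after MGH-CP1. The replicates lay close together within each group, the mean ratio was 1.72, and the log2 fold change was 0.77 (SE 0.05, limma adjusted p = 2.58e-05). Relative to its partner, ITGB4 stood at 0.592 and 0.641 of the ITGA6 FPKM with vehicle and at 0.925 and 0.896 with MGH-CP1 (means 0.616 ± 0.0344 and 0.911 ± 0.0208, SD, n = 2 each; two-sided exact permutation p = 0.333, the lowest this design allows). This ratio within a library does not depend on the scaling between libraries.

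ITGB5 (hg19 chr3:124480795-124606674), a vitronectin receptor chain that pairs with ITGAV, had 60.6 FPKM in both vehicle control libraries and 86.0 and 82.0 after treatment. Its log2 fold change was 0.46 (SE 0.05, limma adjusted p = 1.80e-04), while that of ITGAV was 0.06. ITGB3, the other well known partner of ITGAV, was low: 0.836 and 0.972 FPKM with vehicle and 1.47 and 1.20 with MGH-CP1. The ITGB3 groups did not overlap, but 84 to 106 fragments per library gave a log2 fold change of 0.29 with a 95% interval from -0.01 to 0.59 (adjusted p = 0.0943 from limma). Voom called it higher (log2 fold change 0.56, adjusted p = 0.0235). ITGB3 entered the test only through its MGH-CP1 libraries, so neither its separated groups nor this call is independent support. ITGB2, the leukocyte chain, had 1.97 to 2.80 FPKM and an adjusted p of 0.132 from limma.

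ITGB1 (hg19 chr10:33189247-33294720), the common partner of most alpha chains, was the most abundant member. Its FPKM was 505.8 and 469.8 with vehicle and 460.2 and 437.5 with MGH-CP1. Both treated libraries were lower than both controls by a small margin, and the log2 fold change was -0.12 with a 95% interval from -0.25 to 0.01 (adjusted p = 0.104 from limma). It passed the threshold with the replicate number as a block (adjusted p = 0.0498), without vehicle control replicate 2 (0.0240) and in voom (0.0202), in each case as lower. ITGB6, ITGB7 and ITGB8 had at most 96 fragments in a library and were not tested.

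The makeup of the receptor RNA differed between the groups. Summed over the 13 alpha genes, the level was 567.6 and 582.9 FPKM with vehicle and 696.9 and 709.4 with MGH-CP1, a ratio of means of 1.22. The 8 beta genes summed to 631.6 and 598.5 FPKM with vehicle and 660.0 and 631.2 with MGH-CP1, where the groups overlapped (ratio 1.05, exact permutation test, two-sided, p = 0.667). Within the beta genes the share of ITGB1 was 80.1% and 78.5% with vehicle and 69.7% and 69.3% with MGH-CP1. The ITGB4 share went from 10.2% ± 0.685 to 16.7% ± 0.319 and the ITGB5 share from 9.86% ± 0.375 to 13.0% ± 0.0344 (SD, n = 2 each). Each of these shares separated the groups (two-sided exact permutation p = 0.333, the lowest this design allows). The sums and shares were chosen after the data were seen.

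**Figure D2:**
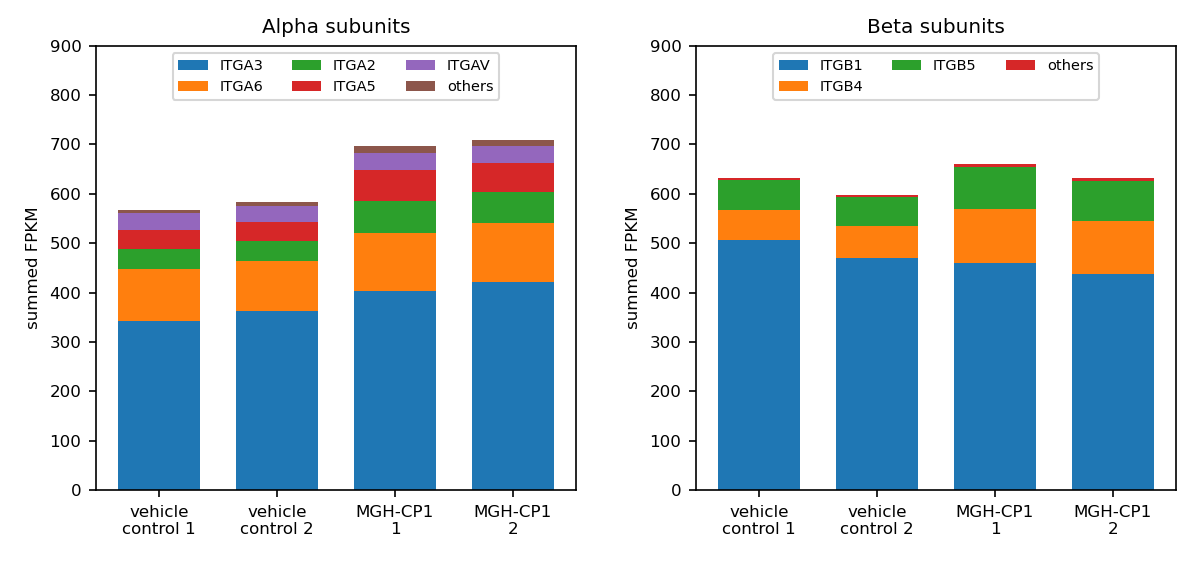
Summed FPKM (linear axis from 0) of the 13 alpha genes (left) and the 8 beta genes (right) in each library, stacked by subunit; the smaller ones are pooled as others. The alpha stacks reach 567.6 and 582.9 with vehicle and 696.9 and 709.4 with MGH-CP1, and in the beta stacks the ITGB4 and ITGB5 layers are wider with MGH-CP1 while the ITGB1 layer is narrower.

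The plaque proteins among the members, on the cytoplasmic side of the adhesion, fell more often than they rose. Of 18 tested, 8 were lower (44.4%) and 4 higher (22.2%), beside 23.8% and 27.1% of all genes. The 35 other plaque genes tested, described below, did not share this, with 9 lower (25.7%) and 12 higher (34.3%). The median log2 fold change of the 18 was -0.12 (SD 0.03 across the same 4 pairs).

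All 4 integrin activators among the members were lower, beside 23.8% of all genes, by 0.24 to 0.40 on the log2 scale. The kindlin gene FERMT3, not a member, was too low to be tested (0.55 and 0.57 FPKM with vehicle, 0.76 and 0.71 with MGH-CP1). TLN1 (hg19 chr9:35696945-35732392), the ubiquitous talin, had 128.5 and 132.5 FPKM with vehicle and 105.0 and 115.6 with MGH-CP1. Its log2 fold change was -0.24 (SE 0.06, limma adjusted p = 0.00855), and its call was lost without MGH-CP1 replicate 1 (-0.17, adjusted p = 0.0694). TLN2, the second talin, had a log2 fold change of -0.40 at a mean of 3.05 FPKM with vehicle (adjusted p = 0.00919 from limma). With the length trend removed the talins stood at -0.16 and -0.28, both still called (adjusted p = 0.0377 and 0.0380). Of the kindlins, FERMT2 went from 17.3 and 17.1 FPKM to 14.7 and 13.5 (log2 fold change -0.27, adjusted p = 0.00826 from limma). FERMT1, the epithelial kindlin, went from 5.49 and 5.11 to 3.64 and 4.52 (log2 fold change -0.32, adjusted p = 0.0329 from limma). The FERMT2 call was lost without MGH-CP1 replicate 2 (adjusted p = 0.0554), and that of FERMT1 without MGH-CP1 replicate 1 (log2 fold change -0.19, adjusted p = 0.181) or vehicle control replicate 1 (adjusted p = 0.128).

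In the ILK complex, which couples the beta tail to actin, PARVA and LIMS1 could be tested. PARVA, which binds actin, had 39.8 and 37.0 FPKM with vehicle and 33.3 and 32.5 with MGH-CP1 (log2 fold change -0.22, standard error 0.06, adjusted p = 0.0126 from limma). Its call was lost without vehicle control replicate 1 (adjusted p = 0.0642) or MGH-CP1 replicate 2 (0.0669). LIMS1, the LIM adaptor PINCH1, changed by -0.15 with a 95% interval from -0.30 to 0.00 (adjusted p = 0.0936 from limma). ILK itself was listed at 0.152 to 0.274 FPKM, with 7 to 13 fragments per library. TAF10 on the opposite strand spans 64.1% of ILK and held 972 to 1273 fragments, so the ILK value is not read as an expression level. PARVB had at most 2 fragments in a library, and SAMM50, which overlaps it on the same strand, held 578 to 887.

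Among the 6 kinases and adaptors 3 were higher and 0 lower, beside 27.1% and 23.8% of all genes, with no unadjusted p under 0.05 downward. Voom called 4 higher, SRC among them (adjusted p = 0.0315), and 0 lower, beside 3480 and 3113 of all 12080 genes. PTK2B, the calcium-responsive relative of focal adhesion kinase, had 3.28 and 3.36 FPKM with vehicle and 7.27 and 5.78 with MGH-CP1. Although the treated libraries differed from each other, both lay well above the controls, and the log2 fold change was 0.79 (SE 0.11, limma adjusted p = 5.77e-04). Focal adhesion kinase itself, PTK2, had 46.8 and 45.6 FPKM with vehicle and 48.5 and 47.7 with MGH-CP1, a log2 fold change of 0.06 with a 95% interval from -0.05 to 0.17 (adjusted p = 0.353 from limma). The interval of PTK2B, from 0.55 to 1.04, lies wholly above that of PTK2. BCAR1, the scaffold p130Cas, rose by 0.21 (adjusted p = 0.00683 from limma). PXN, paxillin, the highest of these genes, had 58.4 and 61.7 FPKM with vehicle and 68.2 and 66.6 with MGH-CP1 (log2 fold change 0.17, standard error 0.05, adjusted p = 0.0254 from limma). The PXN call was lost without the variance trend (adjusted p = 0.0777), and without vehicle control replicate 1, MGH-CP1 replicate 1 or MGH-CP1 replicate 2 (adjusted p = 0.110, 0.126 and 0.0682). The kinase SRC (0.17, adjusted p = 0.104) and the adaptor CRK (-0.09, adjusted p = 0.185) were not called by limma.

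Of the 6 actin linkers tested, 3 were lower and 1 higher, beside 23.8% and 27.1% of all genes. FLNA (hg19 chrX:153576892-153603006), the most abundant actin crosslinker here, had 460.4 and 483.1 FPKM with vehicle and 357.0 and 406.3 with MGH-CP1, a log2 fold change of -0.31 (SE 0.07, limma adjusted p = 0.00580). FLNC (hg19 chr7:128470431-128499328), the muscle filamin whose promoter is printed above, went from 51.1 and 54.7 FPKM to 38.1 and 41.6 (log2 fold change -0.40, standard error 0.06, adjusted p = 0.00110 from limma). With the length trend removed the filamins stood at -0.23 and -0.32, both called. ZYX (hg19 chr7:143078173-143088204), zyxin, a LIM protein recruited to tensed actin, had 69.6 and 73.2 FPKM with vehicle and 55.2 and 57.6 with MGH-CP1, with a log2 fold change of -0.33 (SE 0.05, limma adjusted p = 0.00108). At 2493 bases ZYX is one of the shorter members.

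VCL, vinculin, which binds talin and actin, did not move with them. It had 106.7 and 102.8 FPKM with vehicle and 101.4 and 100.5 with MGH-CP1, and the log2 fold change of -0.05 had a 95% interval from -0.16 to 0.05 (adjusted p = 0.378 from limma). TNS3, a tensin, had overlapping groups between 41.7 and 46.7 FPKM and a log2 fold change of 0.02 (adjusted p = 0.806 from limma), which was -0.06 without MGH-CP1 replicate 2. TES, testin, was the linker called higher (log2 fold change 0.17, adjusted p = 0.0403 from limma). It lost its call with median-ratio scaling (adjusted p = 0.0525), without the variance trend (0.104), with the length trend removed (0.0670), without vehicle control replicate 2 (0.144) and without MGH-CP1 replicate 1 (0.236). TNS1 had 15 to 24 fragments per library and was not tested.

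**Figure D3:**
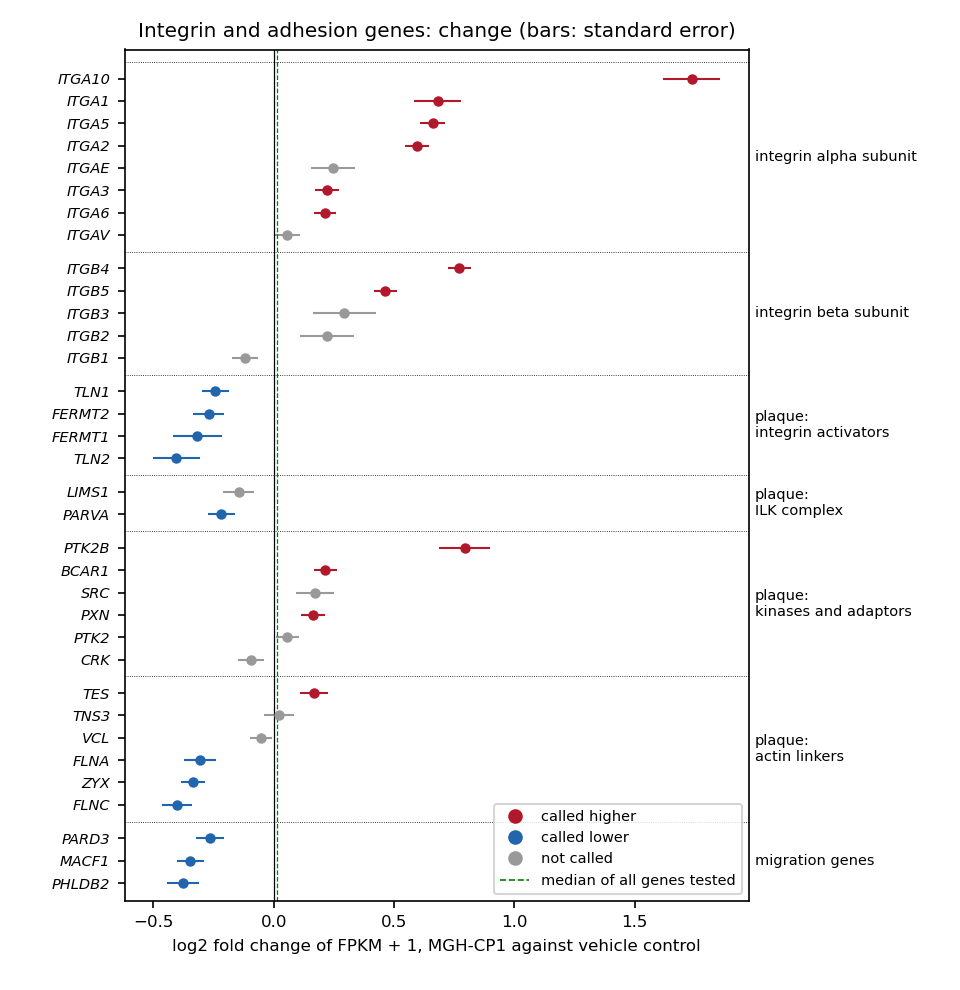
Log2 fold change of FPKM + 1 after MGH-CP1 with its standard error from limma for the 34 members tested, grouped by role; red is called higher, blue called lower, grey not called, and the dashed line is the median of all genes tested (0.01). Every integrin subunit except ITGB1 lies right of 0, and the integrin activators and migration genes all lie left of it.

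Each migration gene had both treated libraries below both controls, and 3 of 3 were called lower beside 23.8% of all genes. The paper had already reported by qPCR in this line that MGH-CP1 lowered these 3 genes, so they were a list known to fall. Their median log2 fold change was -0.35 (SD 0.03 across the same 4 pairs). PHLDB2 (hg19 chr3:111451344-111695364), which helps to anchor microtubules around adhesions, had 13.9 and 13.3 FPKM with vehicle and 9.91 and 10.6 with MGH-CP1. Its log2 fold change was -0.38 (SE 0.07, limma adjusted p = 0.00212). PARD3 (hg19 chr10:34398488-35104253), a scaffold of cell polarity, had 15.7 and 16.0 FPKM with vehicle and 13.0 in both MGH-CP1 libraries, a log2 fold change of -0.27 (SE 0.06, limma adjusted p = 0.00603).

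MACF1 (hg19 chr1:39546988-39952849), a giant linker of microtubules and actin, had 20.0 FPKM in both vehicle control libraries and 15.4 and 15.7 after treatment, so that its log2 fold change was -0.35 (SE 0.06, limma adjusted p = 0.00134). With the length trend removed its log2 fold change was -0.11 and the call was lost (adjusted p = 0.139), whereas PHLDB2 (-0.35) and PARD3 (-0.24) kept theirs. At 24828 bases MACF1 is among 7 genes tested with 20000 bases or more, whose median log2 fold change was 0.03. The length trend therefore rests on few genes at its end, and their median does not follow it. KIAA0754 lies within MACF1 on the same strand and held 1236 to 2281 fragments, against 6835 to 12672 on MACF1. Of the other migration genes measured by qPCR in the study, ABL2, an actin-binding kinase, went from 16.3 and 16.7 FPKM to 10.0 and 11.3 (log2 fold change -0.59, adjusted p = 3.54e-04 from limma). CNN3, a calponin, went from 221.8 and 229.3 FPKM to 158.8 and 168.3 (log2 fold change -0.46, adjusted p = 2.07e-04 from limma). DOCK5, a RAC activator, had 13.4 and 13.0 FPKM with vehicle and 11.2 and 12.7 with MGH-CP1, and its log2 fold change of -0.14 was not called (adjusted p = 0.167 from limma). In the qPCR of the paper DOCK5, like ABL2 and CNN3, was among the genes reported as significantly lowered.

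The wider plaque was mixed in direction. Of 35 other plaque genes tested, of 38 listed, 12 were higher (34.3%) and 9 lower (25.7%), close to the 27.1% and 23.8% of all genes, with a median log2 fold change of 0.04. The largest rises were those of the tensins TNS4 (3.72 and 3.43 FPKM with vehicle, 6.09 and 6.14 with MGH-CP1, log2 fold change 0.64, adjusted p = 4.59e-04 from limma) and TNS2 (0.49, adjusted p = 3.33e-04). The largest falls were those of CAV1, the caveolae coat protein, from 384.6 and 388.5 FPKM to 272.5 and 277.9 (log2 fold change -0.49, adjusted p = 1.00e-04 from limma), and of the crosslinker ACTN1, alpha-actinin, from 175.4 and 178.5 to 126.4 and 128.9 (-0.47, adjusted p = 1.19e-04). The other 5 integrin genes, ITGA2B, ITGAD, ITGAL, ITGAM and ITGAX, were too low to be tested, with at most 26 fragments in a library.

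Genes of the matrix proteins that integrins bind moved mostly upward: 11 of 19 tested were higher (57.9%) and 2 lower (10.5%), beside 27.1% and 23.8% of all genes, with a median log2 fold change of 0.22. COL6A1, a chain of the microfibrillar collagen VI, went from 47.8 and 50.5 FPKM to 103.4 and 95.4 (log2 fold change 1.00, standard error 0.06, adjusted p = 2.04e-05 from limma). LAMA5, the alpha chain of the laminins that ITGA3 and ITGA6 receptors bind, went from 36.7 and 41.3 FPKM to 72.6 and 73.9 (log2 fold change 0.90, standard error 0.06, adjusted p = 3.67e-05 from limma). FN1, fibronectin, the ligand of ITGA5 and named here after its value was seen, had 89.9 and 86.3 FPKM with vehicle and 163.7 and 148.8 with MGH-CP1 (log2 fold change 0.82, limma adjusted p = 3.69e-05). All 3 genes had both treated libraries above both controls. The 2 genes called lower were THBS1, thrombospondin, which went from 190.1 and 184.9 FPKM to 94.0 and 116.5 (log2 fold change -0.83, adjusted p = 1.97e-04 from limma), and the laminin chain LAMB1, from 30.5 and 29.9 to 21.3 and 22.4 (-0.45, adjusted p = 3.58e-04). VTN was not found by its symbol and was not analysed here.

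**Figure D4:**
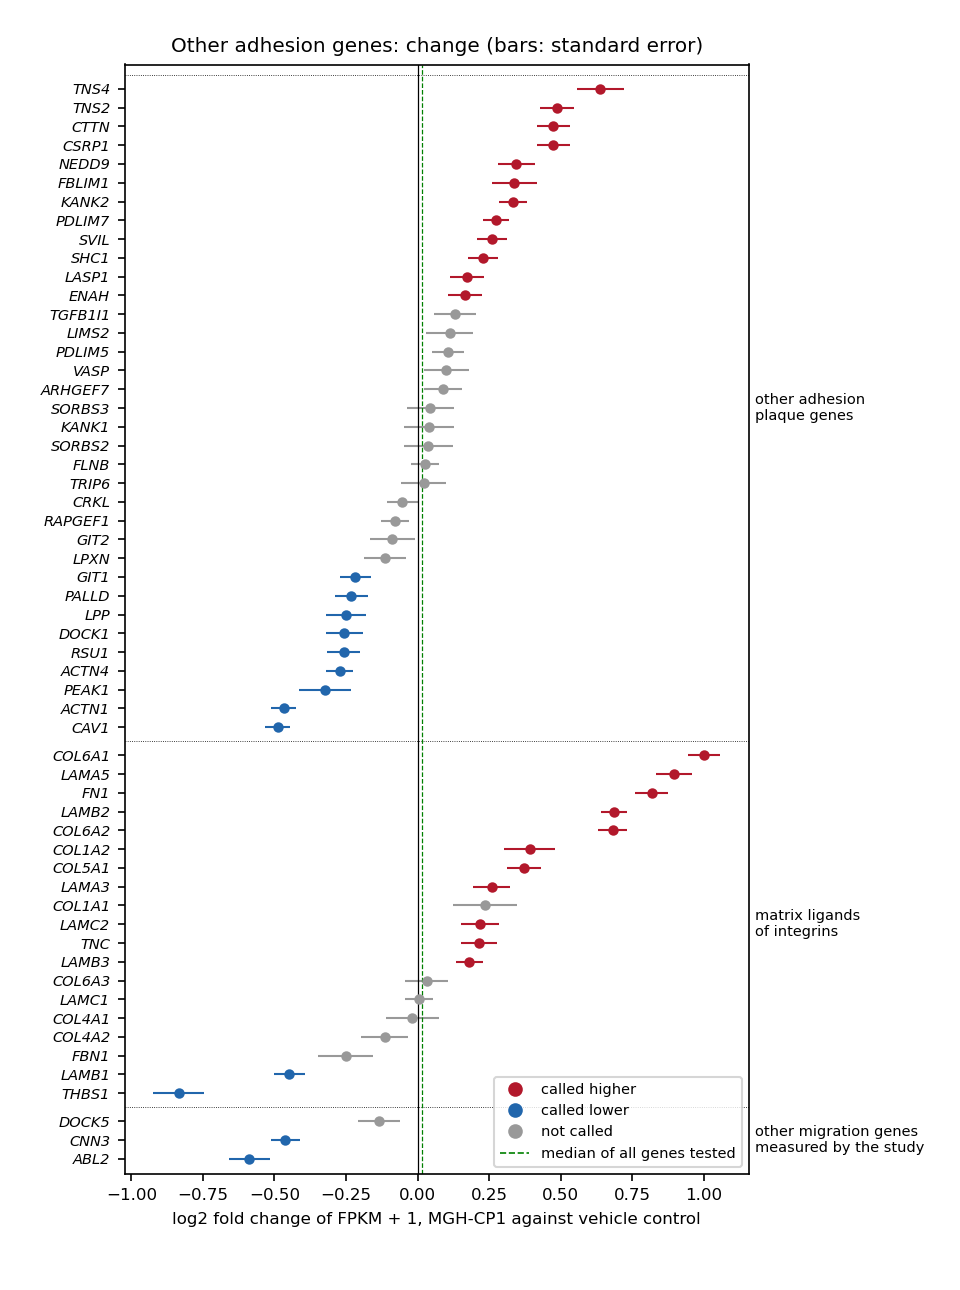
Log2 fold change of FPKM + 1 after MGH-CP1 with its standard error from limma for other plaque genes, matrix ligands and the other migration genes, coloured as called higher (red), called lower (blue) or not called (grey). The matrix ligands lean right, with 11 of 19 called higher, while the other plaque genes spread to both sides, with 12 higher and 9 lower of 35.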

How the data were processed

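RNA of MDA-MB-231 cells treated with vehicle (2 libraries) or MGH-CP1 (2 libraries) for 24 h was poly-T selected and sequenced as paired-end reads. The authors deposited FPKM for 48162 genes with their lengths and coordinates. The submitters' processing notes name CASAVA 1.8, STAR and hg19; the counting tool and its strand setting are not given in the sources used here. Deposited FPKM times gene length came out, per library, as whole steps of equal size for 100% of values (tolerance 0.01), which gave the fragments on genes, 17577930 to 25508824 per library.

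Columns were matched to samples by the condition and replicate in the labels. The 12080 genes averaging at least 1 FPKM were taken to log2(FPKM + 1) and compared with limma 3.58.1 in R 4.3.3 (eBayes with a trend, no covariates, two-sided, Benjamini-Hochberg over all genes, threshold 0.05; intervals are 95%). Tested on simulated data of 11827 genes, this fit recovered 45 of 45 genes lowered and 48 of 50 raised by 1 on the log2 scale. At 0.5 it recovered 26 of 47 lowered and 42 of 49 raised, and 13 of 174 calls were false. The simulation changed few genes and used a single fixed dispersion, whereas 6142 of the 12080 genes were called here. Its recovery and its false calls therefore need not hold for these data. Alternatives were another pseudocount (0.1), no filter, a minimum of 5 FPKM, median-ratio scaling, quantile normalization, a replicate block, no variance trend, no shared variance, voom on recovered fragments and leaving out each library; removing a trend on gene length (loess, span 0.5) was added after the data were seen. Values per library are given for members called and changed by 0.5 or more on the log2 scale, for the highest member of each role, for ITGB1, ITGB3, ITGB5, ITGAV, ITGA5, VCL, ZYX and the migration genes, and for others where they bear on these. Of other lists, the 2 largest called rises and falls are named. The members and lists were chosen with earlier results of these data known. Figures were drawn with matplotlib 3.10.9.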

Additional observations from a re-analysis of the deposited data

How the results depend on the processing

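Without the filter on low values, 5 members were called higher and 3 lower, and 605 and 490 of all genes, because 48162 genes then enter the fit and its adjustment. Without shared variance 0 members were called in either direction, and 9 and 4 of all genes were called higher and lower. At an unadjusted p under 0.05 in that fit 9 members were higher and 7 lower, and 2584 and 2363 of all genes. Voom called 16 members higher and 12 lower, and 3480 and 3113 of all genes. With each library left out in turn, 10 to 11 members were higher and 9 to 12 lower, and 2512 to 2991 and 2129 to 2549 of all genes. The median log2 fold change of the alpha subunits, 0.42, was 0.45 with a pseudocount of 0.1, 0.46 in voom, 0.45 with the length trend removed, 0.21 without the filter (13 genes) and 0.22 at 5 FPKM or more (5 genes), and 0.41 to 0.44 with a library left out. That of the beta subunits, 0.29, was 0.47 with a pseudocount of 0.1 and in voom, 0.46 at 5 FPKM or more (3 genes), 0.12 with quantile normalization and 0.21 to 0.38 with a library left out. For the plaque proteins, -0.12, it was -0.065 without the filter, -0.093 at 5 FPKM or more and -0.14 to -0.10 with a library left out. For the migration genes, -0.35, it was -0.24 with the length trend removed and -0.36 to -0.33 with a library left out. The single value that changed sign was TNS3, which ran from -0.059 without MGH-CP1 replicate 2 to 0.0998 without MGH-CP1 replicate 1.

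Of the 23 members called, 6 (ITGA2, ITGA5, ITGA10, ITGB4, ITGB5 and PARD3) kept the call in each alternative with shared variance that tested them. When the fit without a filter is set aside, 15 did so. ITGA10, ITGA1, TLN2, FERMT1 and PTK2B were too low for the fit with the higher minimum FPKM and were not tested there. ITGA10 passed the main filter only through its MGH-CP1 libraries, so its kept call is no independent support. Nothing states whether the replicate numbers pair these samples. The difference of replicate 1 and 2 correlated between conditions with r = 0.08 across 12080 genes, which are not independent replicates. Whether replicates of the same number shared a batch was not tested. With the replicate block 13 members were higher and 12 lower (3466 and 3052 of all genes); ITGB1 and SRC (adjusted p = 0.0498 and 0.0413 from limma) were gained and no call of a member was lost. With quantile normalization 2918 genes were higher and 3221 lower. The 11 members with a mean under 1 FPKM, which had at most 96 fragments in a library, entered only the fit without a filter.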
